A study of Saccharomyces cerevisiae with 4 samples.

Results

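The genes of de novo purine synthesis and the adenine deaminase gene AAH1 were examined on 4 Affymetrix expression arrays of budding yeast. The set holds 10 genes: ADE1, ADE2, ADE4, ADE5,7, ADE6, ADE8, ADE12, ADE13, ADE17 and AAH1. They were selected on gene symbol with their log2 values on these same arrays already known, so every value below is a description and has no test. In the probe annotation 9 of the 10 symbols have a probe set, 1 each, and all 9 were above background, among 5430 genes compared in all. ADE5,7, which codes for a bifunctional enzyme of the pathway, has no named probe set in the annotation used and was not analysed here.

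Total RNA came from log-phase cultures in YPD, a rich medium, with 1 array for each of 4 groups. The parent is BY4741, whose genotype label lists his3Δ1, leu2Δ0, met15Δ0 and ura3Δ0, and it was sampled at 30 °C and after 30 min at 40 °C. The other strain is labelled hsp30Δ::kanMX in BY4741, and it was sampled under the same conditions. The label of the second strain gives only the hsp30Δ deletion in BY4741, and whether it is 1 clone is not stated. No group has a replicate, and no label lists a mutation in a gene of purine synthesis. A lower value in these cultures can come from fewer cells that express a gene or from less RNA per cell, which cannot be told apart.

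Purines are built stepwise on phosphoribosyl pyrophosphate (PRPP) until inosine monophosphate (IMP) is reached, from which AMP and GMP are made on separate branches. In budding yeast the ADE genes are known to be activated by the transcription factors Bas1 and Pho2 and to be held low when adenine is taken up from the medium. The pathway shares an intermediate, AICAR, with histidine synthesis. Aah1 removes the amino group of adenine, giving hypoxanthine, so that adenine from outside the cell can also feed the guanine branch. Aah1 is known to be lost when yeast cells leave growth for quiescence, in part through its breakdown by way of the F-box protein Saf1.

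Before the comparisons, 2 facts of the arrays bear on every value. The BY4741 30 °C array stood apart: its Pearson r over genes with the other 3 arrays was 0.787 to 0.849, while those 3 had 0.937 to 0.980 with each other. HSP30 itself read 15.51 and 14.18 in BY4741, unheated and heated, and 15.18 and 15.91 under the hsp30Δ label. The deletion is thus not seen in the signal of HSP30, where its probes lie was not checked, and strains are given here as labelled. MET17, the gene of the met15Δ0 deletion, read 1.95 on all 4 arrays, the lowest value of the table. Results are therefore given apart for comparisons that use the BY4741 30 °C array and those that do not.

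ADE4 codes for the amidotransferase that commits PRPP to the pathway. On the log2 scale it read 11.96 for BY4741 at 30 °C, 9.51 for BY4741 at 40 °C, 10.48 on the unheated hsp30Δ-labelled array and 9.85 on the heated one. ADE4 was thus highest on BY4741 30 °C and lowest on BY4741 40 °C, with a 5.48-fold difference between them. The difference between the strain labels at 30 °C was 2.79-fold. ADE8 codes for the GAR transformylase, which adds the first formyl group. It read 12.88, 12.09, 12.90 and 12.35 in the same order of arrays. ADE8 was the exception among the 9 genes: the unheated arrays of both strain labels lay within 0.02 log2 units of each other, and its heat difference in BY4741 was 1.73-fold.

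ADE6, which codes for the next enzyme, FGAM synthetase, read 14.58, 12.08, 12.30 and 12.51. BY4741 30 °C was 2.07 log2 units above the highest of the other arrays, which lay within 0.44 of each other. ADE2 codes for the AIR carboxylase, whose loss gives red colonies. It read 13.99, 12.57, 12.29 and 12.40, with BY4741 30 °C above a narrow band of the other 3. ADE1, the SAICAR synthetase gene, read 13.96, 12.08, 11.73 and 11.54. The 3 lower arrays of ADE1 spanned 0.54 log2 units, against a step of 1.88 up to BY4741 30 °C.

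ADE13 codes for adenylosuccinate lyase, which acts both in the common pathway and on the branch to AMP. It read 14.05, 11.80, 11.10 and 11.28, so that BY4741 30 °C lay 2.25 log2 units above any other array. ADE17 codes for an enzyme that closes the IMP ring after adding the last formyl group, and it has an isozyme, Ade16. ADE17 read 14.90, 11.92, 11.65 and 11.68. It had the largest step of the 8 ADE genes, 2.98 log2 units, over 3 arrays that lay within 0.27 of each other. ADE12, the adenylosuccinate synthase gene at the entry of the AMP branch, read 14.09, 13.04, 12.36 and 12.75. Its step of 1.05 was the smallest among the ADE genes that stood at least 2-fold above every other array on BY4741 30 °C.

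AAH1 had by far the widest range of the 9 genes. It read 11.95 on BY4741 30 °C, then 5.64 on BY4741 40 °C, 5.44 on the unheated hsp30Δ-labelled array and 4.82 on the heated one. The step from the 3 low arrays was 6.31 log2 units, and the low values were still above 2.61, the highest reading of any fission yeast probe set on those arrays, which serve as a background. The low values were thus not at the floor of the table, although they lay far below the medians of those arrays, 11.1 to 11.2. Under quantile normalization the difference of AAH1 between the labels at 30 °C moved from -6.51 to -7.28 log2 units. The size of the step therefore depends in part on how low values are scaled.

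**Figure D1:**
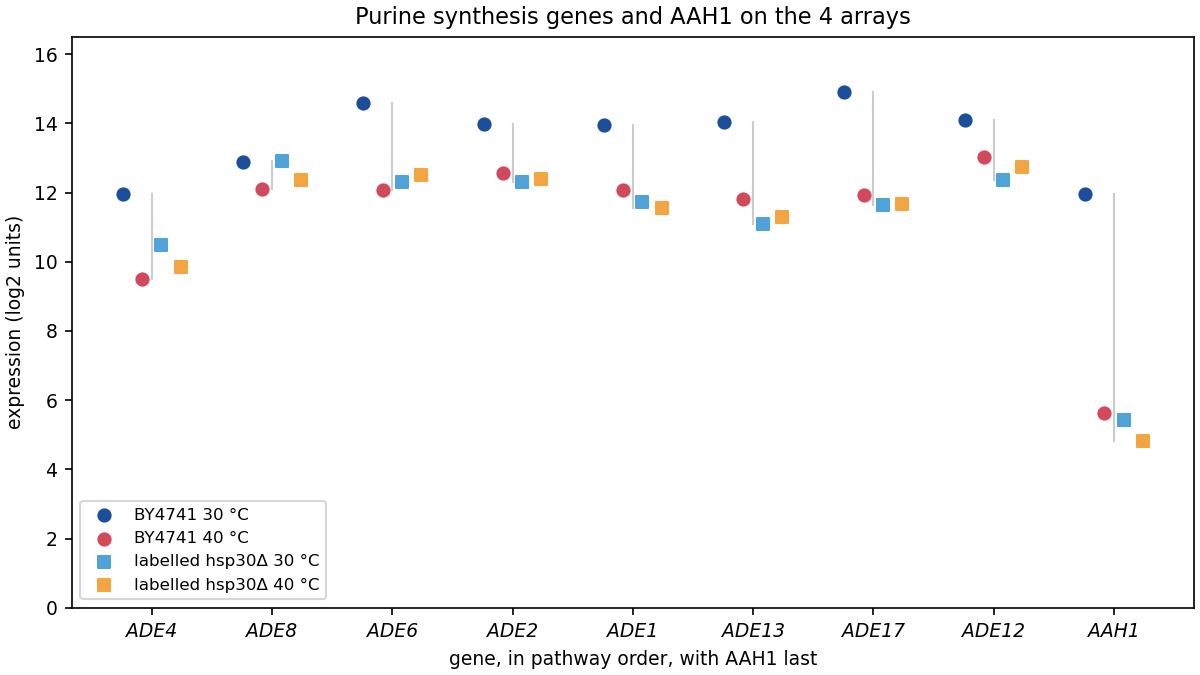
Expression in log2 units (vertical axis) of the 8 ADE genes and AAH1 (horizontal axis), with 1 point for each of the 4 arrays and a grey line over their range; there are no replicates and no error bars. BY4741 30 °C is the highest point for 8 of 9 genes, by 1.05 to 6.31 log2 units, and ADE8 is the exception.

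The comparisons that subtract the BY4741 30 °C array give the same account for nearly all members. In BY4741, 8 of the 9 genes were at least 2-fold lower at 40 °C than at 30 °C and none was that much higher, with a median difference of -2.25 log2 units. Over all genes compared, 18.8% were at least 2-fold lower and 18.9% at least 2-fold higher, and the median was 0.13. AAH1, 79.2-fold lower, had the second lowest difference of all 5430 genes. ADE17 was 7.90-fold lower, and 2.41% of genes had a lower difference. ADE6 was 5.67-fold, ADE4 5.48-fold, ADE13 4.76-fold, ADE1 3.68-fold, ADE2 2.67-fold and ADE12 2.07-fold lower. ADE12 fell short of 2-fold under quantile normalization, at -0.97 log2 units.

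Between the strain labels at 30 °C, 8 of 9 genes were again at least 2-fold lower on the hsp30Δ-labelled array, with a median of -2.23 log2 units. For all genes the shares were 21.4% lower and 23.2% higher, with a median of 0.11. AAH1 was 91.3-fold lower, at -6.51 log2 units or -7.28 under quantile normalization, and had rank 3 from the lowest of all genes as deposited. ADE17 was 9.52-fold, ADE13 7.73-fold, ADE6 4.86-fold, ADE1 4.69-fold, ADE12 3.31-fold and ADE2 3.25-fold lower. This comparison subtracts the same BY4741 30 °C array as the heat comparison in BY4741, so their likeness is no separate evidence. Put as a single pattern, described after the values were seen, 8 of 9 genes read at least 2-fold higher on BY4741 30 °C than on each of the other 3 arrays, against 13.6% of all genes. BY4741 30 °C was the highest of the 4 arrays for 34.7% of all genes.

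The difference of the heat responses of the strain labels also contains the BY4741 30 °C array. It was at least 2-fold upward for the same count, 8 of 9 genes, and downward for none, against 21.7% and 22.6% of all genes. Its values were 5.68 log2 units for AAH1, 3.01 for ADE17, 2.72 for ADE6, 2.43 for ADE13, 1.82 for ADE4, 1.69 for ADE1, 1.53 for ADE2, 1.44 for ADE12 and 0.25 for ADE8. This difference was not tested.

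Without the BY4741 30 °C array, no member differed 2-fold in the 3 remaining comparisons on the values as deposited. Most genes were also under 2-fold there. Of all 5430 genes, these were 5257 for heat under the hsp30Δ label and 4871 between the labels at 40 °C. The third comparison, unheated hsp30Δ against heated BY4741, had 4587. Counts of 0 of 9 are therefore near the share over all genes and are no result particular to the members. On the hsp30Δ-labelled arrays, heat gave 0 of 9 genes at least 2-fold lower and 0 higher, where 1.57% and 1.62% of all genes passed those bounds. The median of the 9 was 0.03 log2 units. ADE4 (-0.63), AAH1 (-0.62) and ADE8 (-0.55) had the lowest differences, and between 6.45% and 9.02% of all genes were lower than these. ADE12 had the highest, 0.39, and ADE17 read within 0.03 log2 units on both arrays.

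At 40 °C the strain labels differed by less than 2-fold for all 9 genes, with a median of -0.24 log2 units, where 3.59% of all genes were at least 2-fold lower and 6.70% higher on the hsp30Δ-labelled array. AAH1 was lowest at -0.83, or -1.48 under quantile normalization, followed by ADE1 at -0.54 and ADE13 at -0.52. ADE6 was highest at 0.44 and ADE4 next at 0.34. The unheated hsp30Δ-labelled array and the heated BY4741 array, which differ in both strain label and temperature, also had 0 of 9 genes past 2-fold, beside 6.19% of all genes lower and 9.34% higher. ADE4 came nearest to that bound there, 0.98 log2 units higher on the hsp30Δ-labelled array, and ADE8 was 0.81 higher.

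**Figure D2:**
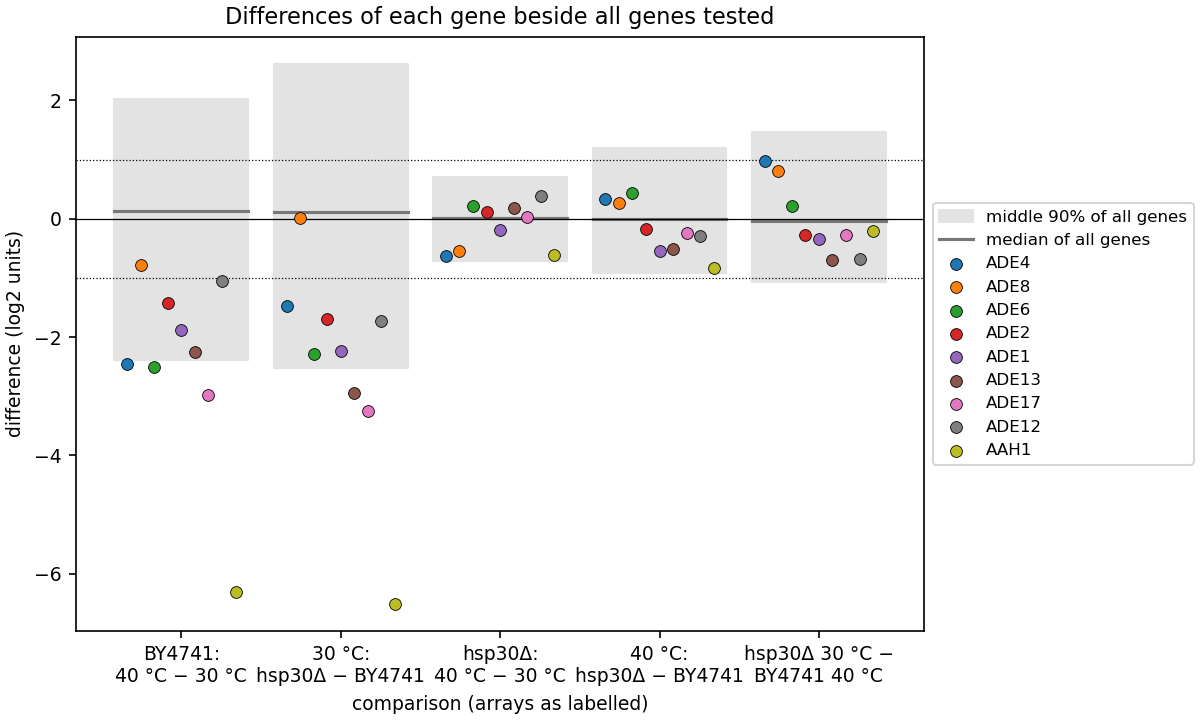
Difference in log2 units (vertical axis) of each of the 9 genes in 5 comparisons (horizontal axis); grey boxes hold the middle 90% of all 5430 genes, grey bars are their medians and dotted lines mark 2-fold. The genes lie low in the first 2 comparisons, which share the BY4741 30 °C array, with AAH1 at -6.31 and -6.51, and between -0.83 and 0.98 in the other 3.

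A second feature of ADE4 and ADE8, described after the values were seen, was not found in the other members. Each read higher on the unheated hsp30Δ-labelled array than on both 40 °C arrays, by 0.55 to 0.98 log2 units. Other genes of the lists also read higher there than on both 40 °C arrays. Among them were PRS1, PRS2, GCV2, APT2, AMD1, HPT1, GUD1, FCY1 and TAD1, so the feature is not particular to ADE4 and ADE8. The share of all genes with this feature was not counted, so how common it is over all genes is not known. The following 3 genes were picked out after their values were seen. BAS1, the gene of the transcription factor, read 10.25, 8.55, 9.42 and 8.87 in the same order of arrays. FCY2, the gene of the main permease for adenine and other purines, read 12.60, 9.87, 11.28 and 10.38. MTD1, a cytosolic methylenetetrahydrofolate dehydrogenase gene, read 12.80, 10.26, 11.17 and 10.70. For these 3 genes BY4741 40 °C was the lowest array and the unheated hsp30Δ-labelled array the second highest, as for ADE4, PRS1 and GCV2. ADE8 differed, since its unheated hsp30Δ-labelled array did not lie below BY4741 30 °C. The heat differences on the hsp30Δ-labelled arrays were -0.91 log2 units for FCY2, -0.55 for BAS1 and -0.47 for MTD1.

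The isozyme gene ADE16, which is not a member of the set, varied little and did not share the step of ADE17. In BY4741 ADE16 read 14.01 log2 units unheated and 14.27 heated, and under the hsp30Δ label 14.37 and 14.47. It was lowest where ADE17 was highest, although its whole range was under 0.5 log2 units. The heat difference in BY4741 was -2.98 for ADE17 and 0.25 for ADE16, a gap of 3.24 log2 units between the isozyme genes. ADE16 lay near the middle of all genes there, with 54.3% of genes lower. On the hsp30Δ-labelled arrays the gap was 0.08. Ade16 and Ade17 catalyse the same reactions, and where the probes of each lie relative to sequence they share was not checked.

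The genes from IMP to GMP had the same direction as most members. Of 5 genes in this list, which also holds ADE16, 4 were at least 2-fold lower in BY4741 at 40 °C and 4 at least 2-fold lower on the unheated hsp30Δ-labelled array, with medians of -1.97 and -2.05 log2 units. For this and each later list, 18.8% of all genes were at least 2-fold lower and 18.9% higher for heat in BY4741. Between the labels at 30 °C these shares were 21.4% and 23.2%. IMD3, one of the IMP dehydrogenase genes at the entry of the guanine branch, read 14.08, 11.96, 11.37 and 12.38. GUA1, the GMP synthetase gene, read 13.40, 11.43, 11.35 and 11.50, close to the shape of the ADE genes. IMD2 was 4.30-fold and IMD4 2.49-fold lower in BY4741 at 40 °C. The probe set of IMD2 has a suffix for shared sequence, so its value may hold signal of related genes. How much sequence the probes of IMD3 and IMD4 share with other genes was not checked. Unlike the ADE genes, IMD3 was 2.01-fold higher at 40 °C than at 30 °C on the hsp30Δ-labelled arrays.

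The supply of PRPP and of folate units had steps of the same direction. Of the 5 PRPP synthetase genes 3 were at least 2-fold lower in BY4741 at 40 °C, PRS1 by 3.03-fold, PRS3 by 2.74-fold and PRS4 by 2.08-fold, while PRS2 read 11.17, 11.32, 11.75 and 11.28. All 8 genes of folate carbon supply were lower, 6 by 2-fold or more, and the median was -2.46 log2 units. Of all 5430 genes, 2442 were lower by any amount in BY4741 at 40 °C. GCV2, a glycine cleavage subunit gene, was 10.9-fold lower, and the mitochondrial C1-tetrahydrofolate synthase gene MIS1 8.69-fold. On the hsp30Δ-labelled arrays MIS1 was 2.17-fold higher at 40 °C than at 30 °C. SHM2, the cytosolic serine hydroxymethyltransferase gene, read 14.78, 12.35, 11.85 and 12.12, and ADE3, its partner in the cytosol, 14.41, 13.49, 13.30 and 13.75. At 30 °C 7 of these 8 genes were at least 2-fold lower on the hsp30Δ-labelled array, with a median of -2.39.

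Salvage genes differed in direction. Of 12 genes, 5 were at least 2-fold lower and 1 higher in BY4741 at 40 °C, with a median of -0.87 log2 units, and 6 were lower and 4 higher on the unheated hsp30Δ-labelled array. APT1, the adenine phosphoribosyltransferase gene, was 4.73-fold lower in BY4741 at 40 °C, while its paralog APT2 read 10.56, 11.13, 11.86 and 11.74. MEU1, which acts on methylthioadenosine, was 4.40-fold lower, and the adenylate kinase gene ADK1 2.42-fold. On the hsp30Δ-labelled arrays ADK1 was 2.11-fold higher at 40 °C than at 30 °C. HPT1 codes for the transferase that turns hypoxanthine, the product of Aah1, into IMP. HPT1 read 11.83 and 10.65 in BY4741, against 12.96 and 12.83 under the other label, and so was higher under the hsp30Δ label at both temperatures, by 1.14 and 2.18 log2 units. At 40 °C 98.3% of genes had a lower difference between the labels than HPT1.

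AMD1 codes for AMP deaminase, which provides another route from adenine nucleotides to IMP. It read 12.24 unheated and 12.87 heated in BY4741, against 13.75 and 13.63 under the hsp30Δ label. AMD1 was lowest on the array where AAH1 was highest, and was 2.85-fold higher on the unheated hsp30Δ-labelled array, where AAH1 was lower by far. GUD1, the guanine deaminase gene, was 2.32-fold higher in BY4741 at 40 °C and 2.67-fold higher on the unheated hsp30Δ-labelled array.

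Among deaminases outside purine salvage, 2 of 6 were at least 2-fold lower and 1 higher in BY4741 at 40 °C. With 18.8% and 18.9% of all genes past these bounds, such counts are near the share over all genes. DCD1, the dCMP deaminase gene, read 9.35, 6.45, 5.06 and 7.31, and its heat difference of -2.90 in BY4741 was the lowest of this list. On the hsp30Δ-labelled arrays DCD1 went the other way, 4.77-fold higher at 40 °C than at 30 °C, rank 5 from the highest of all genes. TAD2, the gene of a tRNA adenosine deaminase subunit, was the one gene of this list with a large difference between strain labels at both temperatures, reading 8.64 and 8.49 against 13.60 and 13.77. TAD3, the gene of the partner subunit of Tad2, was 2.28-fold lower in BY4741 at 40 °C and read 10.08, 8.89, 8.21 and 8.42.

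The regulator genes differed among themselves. BAS1 was 3.24-fold lower in BY4741 at 40 °C, while PHO2, the gene of its partner, was 2.34-fold higher. GCN4, the gene of the activator of amino acid synthesis, read between 14.91 and 15.34 on all 4 arrays. SAF1 read 11.57 on BY4741 30 °C and 13.51, 13.39 and 13.56 on the other 3, so it was low on the array where AAH1 was high. It was 3.83-fold higher in BY4741 at 40 °C and 3.53-fold higher on the unheated hsp30Δ-labelled array, comparisons that share the BY4741 30 °C array.

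**Figure D3:**
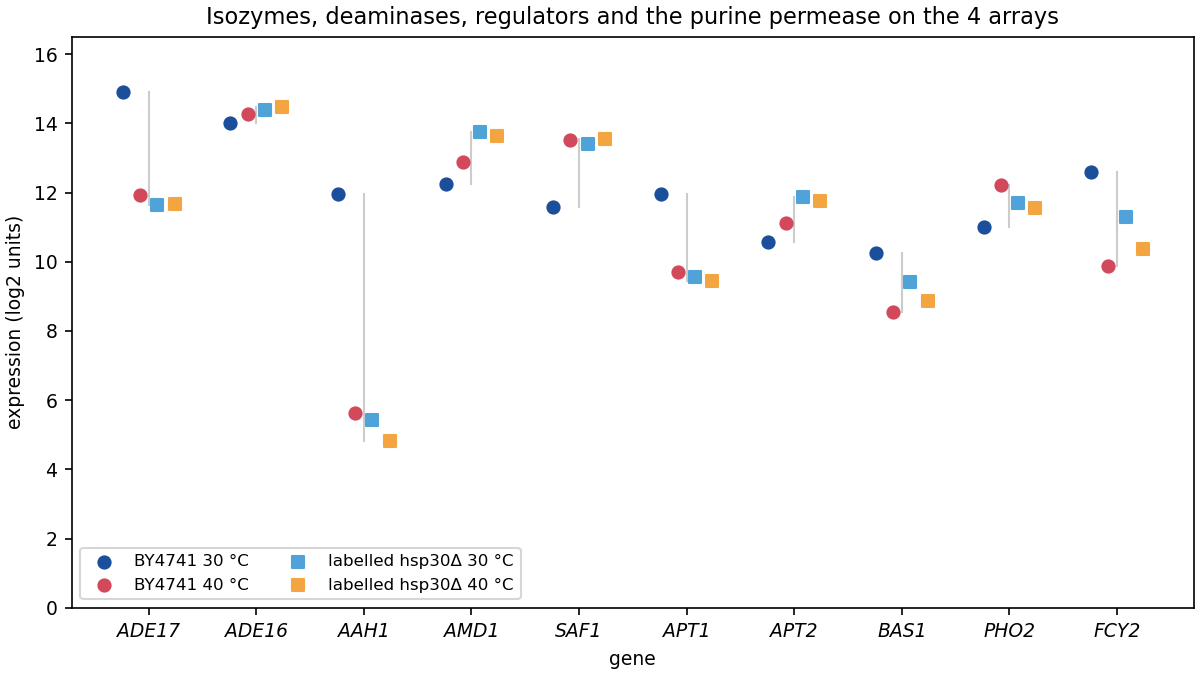
Expression in log2 units (vertical axis) of 10 genes (horizontal axis), with 1 point for each of the 4 arrays and a grey line over their range. ADE17, AAH1, APT1, BAS1 and FCY2 are highest on BY4741 30 °C, where ADE16, AMD1, SAF1, APT2 and PHO2 are lowest.

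Among transporters, FCY2 was 6.61-fold and the nucleoside transporter gene FUN26 2.82-fold lower in BY4741 at 40 °C, and FCY21 read 5.99, 5.74, 6.15 and 6.30. FCY22 read 3.24, 6.26, 5.10 and 5.89. The value of 3.24 is not far above 2.84, the maximum over fission yeast probe sets there. FCY22 was higher by 1.86 log2 units on the unheated hsp30Δ-labelled array as deposited and lower, at -0.65, under quantile normalization, so it has no settled direction there.

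Histidine synthesis, which shares AICAR and the regulators Bas1 and Pho2, had 4 of 6 genes at least 2-fold lower in BY4741 at 40 °C and 5 of 6 at least 2-fold lower on the unheated hsp30Δ-labelled array, with medians of -1.72 and -2.18 log2 units. HIS7 was 7.83-fold, HIS1 7.12-fold, HIS4 3.69-fold and HIS5 2.94-fold lower in BY4741 at 40 °C. HIS4 was also 2.48-fold higher at 40 °C than at 30 °C on the hsp30Δ-labelled arrays, where no ADE gene passed 2-fold.

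Pyrimidine synthesis had 1 of 8 genes at least 2-fold lower and 2 higher in BY4741 at 40 °C, with a median of -0.54 log2 units against -2.25 for the 9 purine genes. Over all genes 18.8% were that much lower and 18.9% higher, so the pyrimidine counts are near those shares. At 30 °C pyrimidine synthesis had 5 of 8 genes at least 2-fold lower on the hsp30Δ-labelled array and 1 higher, against 21.4% and 23.2% of all genes. URA7, a CTP synthase gene, was 9.91-fold lower in BY4741 at 40 °C, and its paralog URA8 2.09-fold higher. URA10, a minor orotate phosphoribosyltransferase gene, was 4.46-fold higher, while its paralog URA5 read 14.02, 13.16, 12.90 and 13.22. At 30 °C URA6, the uridylate kinase gene, was 3.77-fold and URA4, the dihydroorotase gene, 3.22-fold lower on the hsp30Δ-labelled array. All 8 genes read higher at 40 °C than at 30 °C under the hsp30Δ label, with a median of 0.46, where the 9 purine genes had 0.03. Of all 5430 genes, 2783 read higher in this comparison. The difference between the pyrimidine and purine lists was not tested.

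Of the 4 ribonucleotide reductase genes, which make deoxynucleotides from the products of both pathways, 1 was at least 2-fold lower and 1 higher in BY4741 at 40 °C. The shares over all genes were 18.8% and 18.9%, so these counts are near them. RNR1, the main large subunit, was 12.4-fold lower. RNR3, the alternative large subunit known for its induction by DNA damage, read 9.09, 10.16, 11.16 and 11.17. RNR2 and RNR4, the small subunits, were less than 2-fold apart in this comparison.

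**Figure D4:**
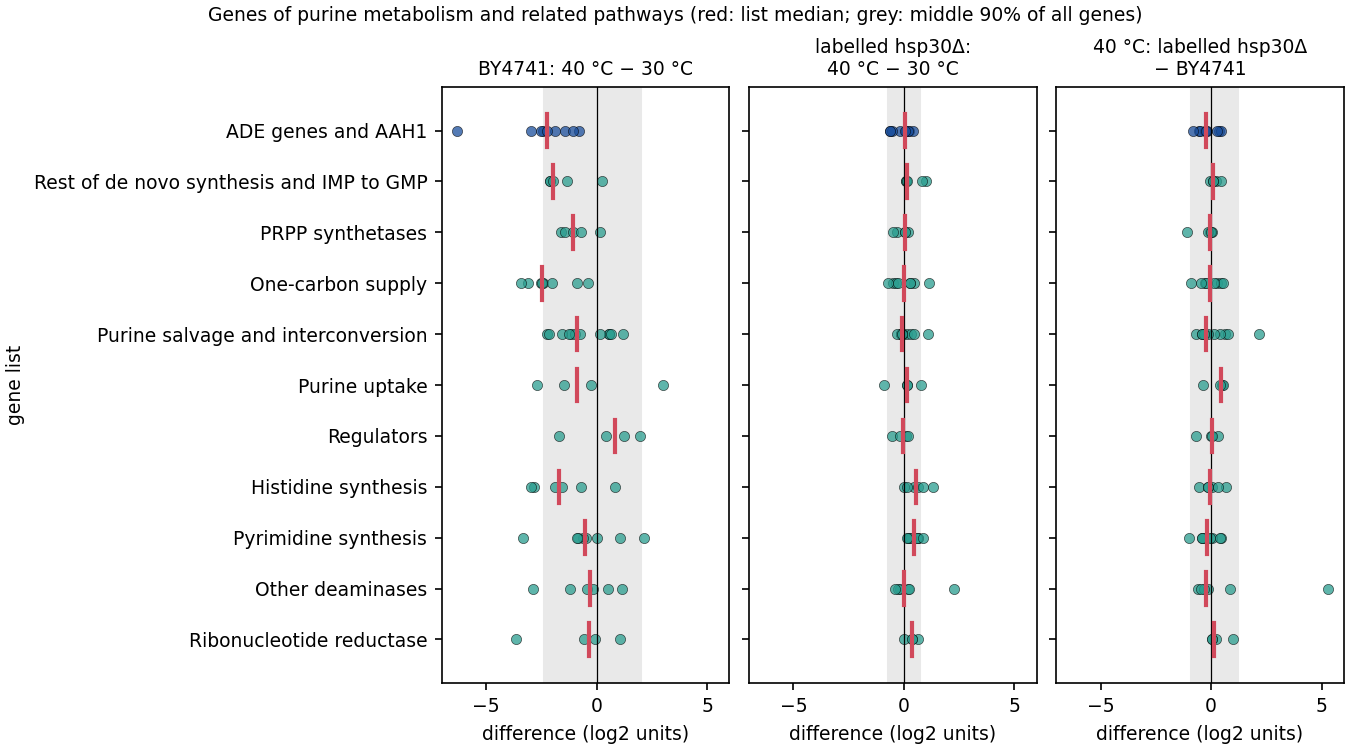
Difference in log2 units (horizontal axes) of each gene of the 11 lists (rows) in 3 comparisons (panels); each point is a gene, red bars are list medians and grey bands hold the middle 90% of all genes. For heat in BY4741 the ADE genes with AAH1 (median -2.25) and folate supply (-2.46) lie lowest and the regulators highest (0.83), while the medians lie between -0.24 and 0.56 in the other 2 panels.

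Profiles were also compared over the 4 arrays, each centred on its own mean, by the root mean square distance in log2 units. The genes nearest to AAH1 were RIX1 (0.41), PPT1 (0.52), YVH1 (0.59), TRM11 (0.64) and SSF1 (0.75), where the median gene lay 2.96 away. RIX1, YVH1 and SSF1 act in assembly of the large ribosomal subunit, TRM11 in tRNA methylation, and PPT1 codes for a protein phosphatase. RIX1 read 9.66, 4.15, 2.88 and 2.97, of which the last are close to the fission yeast maximum of 2.61. YVH1 read 9.92, 3.28, 2.89 and 3.79, and TRM11 9.31, 3.43, 3.27 and 3.88, also not far above that level. The size of the step in these genes thus rests in part on values near background. No ADE gene was among the 5.

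The mean profile of the 8 ADE genes was nearest to those of BMS1 (0.04), PMT5 (0.05), ODC2 (0.06), YLR179C (0.06) and LHP1 (0.06), against 0.95 for the median gene. BMS1 codes for a GTPase of small ribosomal subunit assembly, PMT5 for a protein mannosyltransferase, ODC2 for a mitochondrial carrier and LHP1 for an RNA-binding protein of tRNA maturation. BMS1 read 11.97, 10.08, 10.13 and 10.04. Among the ADE genes, ADE1 and ADE2 lay nearest to the mean profile, at 0.19 each, and ADE8 farthest, at 0.72, while 1624 genes outside the set lay nearer to it than ADE8. The same count was 918 for ADE17, 474 for ADE13, 402 for ADE4, 368 for ADE12, 161 for ADE6, 100 for ADE2 and 99 for ADE1. Many outside genes thus lay nearer to the mean than the ADE genes that it was made from. Distances over 4 arrays, 1 of which stands apart from the rest, mostly rank the size of a single step and show no shared control.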

How the data were processed

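The authors deposited 1 table of log2 expression values for 5802 probe sets on 4 arrays, and all its columns were used (0 of other samples). GCRMA and MAS5 were used, per the submitters' processing notes, with versions, roles and order not given. The values were used as deposited.

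Gene names were given for 5515 probe sets, of which 5483 matched a budding yeast gene by gene ID. The other 32, with symbols in fission yeast style, set the background at their 95th percentile, 1.96 log2 units. Values below it were raised to it. Genes above it on at least 1 array were kept, 5430 of 5436, each read from its probe set with the highest mean. Python 3.11.15 and pandas 2.3.3 were used, checked on simulated data.

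No group has replicates, so differences were counted at 2-fold and not tested. The members and all 10 further lists were chosen with earlier results of these data known. Named are all members, up to 4 genes a list with the largest difference, ADE16, BAS1, PHO2, GCN4, SAF1, AMD1 and the 5 nearest profiles; the other genes named were chosen after their values were seen. Gene coordinates and promoter and protein sequences were not used here, so the planned motif search was not run. Alternatives were quantile normalization, median centring, no floor, no filter, the mean of probe sets, and bounds of 1.5-fold and 3-fold. Precision is limited by the number of arrays, 1 a group.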

Additional observations from a re-analysis of the deposited data

Results flagged for a closer look

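For 5 of the 9 genes the heat difference had opposite signs under the strain labels, lower in BY4741 and higher under the hsp30Δ label. The difference of the responses was 1.53 log2 units for ADE2, 2.72 for ADE6, 1.44 for ADE12, 2.43 for ADE13 and 3.01 for ADE17. With 1 array a group this was not tested, 56.9% of all genes had opposite signs, and the part under the hsp30Δ label was 0.39 log2 units at most, for ADE12.

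Outside the comparisons, 211 probe sets with no gene name read above the highest fission yeast probe set on all 4 arrays.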

How the results depend on the processing

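Of 753 recomputed values 700 kept their size and 0 changed sign from a 2-fold difference; a value counted as moved when it shifted by over 0.38 log2 units, the robust SD of the hsp30Δ heat difference over all genes, or a count by over 1.5 times. Median centring, no floor, no filter on dim genes and the mean of probe sets moved 0 of 125 values each, and quantile normalization 6, while the bounds of 1.5-fold and 3-fold moved 22 and 25 of 64 counts and shares. No member or list gene has several probe sets or a value below background. Leaving out the floor or filter, or averaging probe sets, could therefore change only the shares over all genes. Their unchanged values are no check of the member and list results. The counts of 8 lower genes in the comparisons with BY4741 30 °C lay between 6 and 9 under all 7 alternatives for heat in BY4741, and between 7 and 8 for the strain labels at 30 °C. Among the 9 members AAH1 moved most, under quantile normalization, to -7.28 log2 units between the labels at 30 °C, and to -0.70 between hsp30Δ 30 °C and BY4741 40 °C. Counts of 0 members changed as follows. At 40 °C 1 gene was lower under the hsp30Δ label with quantile normalization, and 1 at 1.5-fold, a bound that 15.1% of all genes passed. At 1.5-fold, 2 genes were lower with heat under the hsp30Δ label (7.79% of all genes), and 2 were lower (19.1%) and 2 higher (18.8%) on hsp30Δ 30 °C than on BY4741 40 °C, so the last counts are near the share over all genes. Of the 5 genes nearest to AAH1, 5 stayed so under every scaling, floor, filter and probe set alternative, and of those nearest to the ADE mean 2 under quantile normalization and 5 under the others. The floor was not used in these distances, and the filter leaves out only 6 genes, all at background. Those settings could therefore not change the nearest genes. Among single genes of the further lists with a 2-fold difference, FCY22 alone changed sign, between the labels at 30 °C under quantile normalization, from 1.86 to -0.65. No value has a replicate, so the spread between cultures is not known.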
